A study of Homo sapiens with 6 samples.

Results

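The genes described here are 59 genes spread over both arms of chromosome 7 and listed as housekeeping genes. They are used as a readout of the level of that chromosome's transcripts in a glioma line and its derivatives. They were taken by symbol from the probe annotation of an oligonucleotide array, and each gene's probe set was chosen by its measured signal, as the one with the highest mean over the 6 arrays. No difference between groups entered that choice, but the list was drawn up with earlier results of these data known, so its counts and medians are given as a description with no test. Of the 59 genes, 53 had a probe set of their own, out of 19775 genes that did. Of those, 52 passed a filter on low signal and were tested among 14513 genes, 25 of them on the short arm (7p) and 27 on the long arm (7q). They stand beside 627 other tested genes of chromosome 7.

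The study set out to profile mRNA in highly invasive glioma cells against non-invasive and parental cells. U87MG is the parental line, an established human glioblastoma line bought from a cell bank and grown in serum. U87MGL, described as non-invasive, and U87MGR, described as highly invasive, were derived from it by 4 rounds of growth in the brain of nude mice, with tumour cells returned to culture after each round. Each of the 3 groups had 2 arrays, titled biological replicates. In each derivative the replicates also carry different line names, replicate 1 being U87MGL2 or U87MGR2 and replicate 2 U87MGL3 or U87MGR3. All cells thus share 1 parental line, the derivatives also share passage through mouse brain and culture, and the spread within a derivative includes any difference between its lines. P-values here measure only the spread between these samples.

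Housekeeping genes serve functions that nearly every cell needs, such as replication, splicing, translation and protein breakdown. Their transcripts tend to follow the number of gene copies more closely than those of regulated genes do. That description was not tested for each member, and SNX10 lay below the signal filter on every array. Extra copies of chromosome 7 are a common feature of glioblastoma, where the short arm carries the gene of the epidermal growth factor receptor. Transcript levels are an indirect readout of copy number, which was not measured on these arrays.

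Array medians lay between 5.29 and 5.35 (log2). Spiked-in control RNA, which carries no cellular signal, parted them into 3 batches across group lines. The first held U87MGR replicate 1 with both arrays of U87MGL, and the second U87MGR replicate 2 with U87MG replicate 1. U87MG replicate 2 was by itself, and had an 18S rRNA control probe set at 12.5 against 6.00 to 7.98 on the other arrays. GAPDH's 3′ minus 5′ difference, a sign of RNA quality, was 0.24 in U87MGR replicate 2 and 0.03 to 0.07 elsewhere, whereas that of actin was -0.01 in U87MG replicate 1, 0.39 in U87MGL replicate 1 and 0.22 to 0.28 on the other 4 arrays. Their part in the results was not tested. The glioma markers VIM and CD44 had log2 signals of 14.30 to 14.46 and 12.96 to 13.30. CHI3L1 of the same list fell from 13.3 on both U87MG arrays to 9.83 and 8.58 in U87MGL and 10.46 and 10.10 in U87MGR (by limma, -4.13 with adjusted p = 0.00795 and -3.05 with adjusted p = 0.0185), and NES had differences from U87MG of 1.14 and 1.18 that did not pass (adjusted p = 0.206 and 0.218). The astrocyte marker GFAP and the stem cell marker SOX2 lay at 5.21 to 5.45 and 4.77 to 4.96, close to the filter at 4.73, and S100B lay below it. Of 7 measured microglia and macrophage markers, PTPRC, CX3CR1 and TYROBP lay below the filter and 4 passed it: CSF1R at 7.31 to 7.85, AIF1 at 5.65 to 6.59, CD14 at 4.56 to 5.11 and ITGAM at 4.47 to 4.94. The log2 of their summed signal was 8.48 to 8.60 over the arrays. The same sum was 9.27 to 9.75 for endothelium and pericytes, 10.4 to 10.9 for neurons, 9.92 to 10.2 for oligodendrocytes and 15.003 to 15.35 for the glioma line markers. Of the oligodendrocyte markers CNP read 9.70 to 10.05 and MBP 5.82 to 6.76, while MOG, MAG and MOBP lay below the filter. Among the neuron markers SNAP25 read 9.21 to 9.73, MAP2 7.31 to 9.61 and RBFOX3 5.14 to 5.79, and STMN2 lay below the filter. Of 7 tested neuron markers limma called 1, MAP2, lower in U87MGL than in U87MG (-1.74, adjusted p = 0.0226). Of the 7, 3 had a difference above 0 there and 4 below. The endothelium and pericyte sum ran against the order seen below for chromosome 7, at 9.68 and 9.75 in U87MG, 9.47 and 9.61 in U87MGL and 9.27 and 9.46 in U87MGR, and its part in the results was not tested. Of its 8 markers CDH5 was below the filter on every array and 7 passed, PECAM1 at 6.12 to 6.51 among them. Limma called PDGFRB, a pericyte marker, lower in both derivatives, with differences of -0.97 in U87MGL (adjusted p = 0.0355) and -1.36 in U87MGR (adjusted p = 0.0207). CSPG4 and RGS5 had differences above 0 from U87MG in both derivatives, of 0.84 to 1.43 and 0.26 to 0.58, none of them called. In such bulk samples, fewer cells of a type and less RNA per cell cannot be told apart.

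The promoters of the 4 genes that passed the test in any comparison are printed here, since the members are read as a set and these are the ones whose differences stood out singly. Each sequence is the 250 bases before the RefSeq start site in GRCh38.p14, read 5′ to 3′ on the gene's strand. Capitals mark the GC box GGGCGG, bound by Sp factors, and the CCAAT box, on either strand; capital runs may hold overlapping copies.
C1GALT1 promoter, chr7:7182294-7182543 (plus strand): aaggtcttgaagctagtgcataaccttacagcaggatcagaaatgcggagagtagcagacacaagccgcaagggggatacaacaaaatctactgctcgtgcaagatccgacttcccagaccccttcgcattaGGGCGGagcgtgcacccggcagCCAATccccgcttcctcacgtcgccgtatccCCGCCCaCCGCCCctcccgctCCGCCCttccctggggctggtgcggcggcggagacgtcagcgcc
BZW2 promoter, chr7:16645931-16646180 (plus strand): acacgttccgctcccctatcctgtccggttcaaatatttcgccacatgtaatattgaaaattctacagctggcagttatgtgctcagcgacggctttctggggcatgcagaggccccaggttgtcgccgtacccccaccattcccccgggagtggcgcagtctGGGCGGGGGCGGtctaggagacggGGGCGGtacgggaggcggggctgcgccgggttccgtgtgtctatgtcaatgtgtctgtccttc
COPS6 promoter, chr7:100088719-100088968 (plus strand): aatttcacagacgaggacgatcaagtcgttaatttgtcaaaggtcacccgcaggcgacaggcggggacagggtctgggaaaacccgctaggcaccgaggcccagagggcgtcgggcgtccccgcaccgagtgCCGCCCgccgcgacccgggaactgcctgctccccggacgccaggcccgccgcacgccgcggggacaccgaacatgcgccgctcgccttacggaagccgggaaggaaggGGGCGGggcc
EZH2 promoter, chr7:148884292-148884541 (minus strand): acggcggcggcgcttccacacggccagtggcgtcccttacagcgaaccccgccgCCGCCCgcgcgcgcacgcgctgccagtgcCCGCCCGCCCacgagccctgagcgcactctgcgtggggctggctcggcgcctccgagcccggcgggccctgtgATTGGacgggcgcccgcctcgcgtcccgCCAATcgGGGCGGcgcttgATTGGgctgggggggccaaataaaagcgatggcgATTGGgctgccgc
None of the 4 held TATAAA or the ETS-type motif CCGGAAG on either strand. Over the 52 members with a RefSeq promoter, GGGCGG occurred in 36 (69.2%, against 42.3% of all 27305 promoters) and CCAAT in 23 (44.2% against 33.04%). CCGGAAG occurred in 12 members (23.1% against 8.82%) and TATAAA in 1 (1.92% against 11.1%), counting both strands. CpG dinucleotides numbered 5 to 39 in the members, with a median of 22.5, against a median of 11 in all promoters. These letter counts describe promoters rich in CpG and GC boxes and poor in TATA boxes, and say nothing about which factor was bound.

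U87MGR against U87MGL compares invasive with non-invasive cells of the same origin. Transcripts of the members were on balance higher in U87MGR: 43 of 52 had a difference above 0, against 50.3% of all tested genes, and the median difference was 0.25 on the log2 scale (1.19-fold), against 0.00 over all tested genes. BAZ1B, a chromatin remodelling factor, SNX13, a sorting nexin, BLVRA, which reduces biliverdin to bilirubin, and OGDH, a subunit of the oxoglutarate dehydrogenase complex, had the highest differences, from 0.74 to 0.92. The lowest of their probe sets above the filter stood at 0.08, 0.05, 0.21 and, with the opposite sign, -0.15 in the same order. CDK6, a kinase of the G1 phase, had the lowest at -0.68. No single member passed limma's adjusted threshold of 0.05 in either direction, where 0.0413% of all tested genes were called higher and 0.117% lower; without adjustment, 10 members (against 3.91% of all) lay higher and 1 (against 4.94%) lower at p under 0.05. In 35 members (67.3%) both U87MGR arrays lay above both U87MGL arrays, against 23.3% of all tested genes, and in 3 (5.77%) both lay below, against 23.3%. Within the spike-in batch that holds both groups (U87MGR replicate 1 against both U87MGL arrays), 45 of 52 were above 0, with a median of 0.29.

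The other genes of chromosome 7 differed in the same direction. These 627 genes had a median of 0.21, with 475 above 0 and 342 (54.5%) without overlap in the upward direction. Medians of the 22 other chromosomes lay between -0.05 and 0.08. Housekeeping genes of chromosome 10, 28 of which were tested, had a median of -0.02 and none called by limma. Genes outside chromosome 7 whose mean signal reached the lower quartile of the members' own, a set defined after the data were seen, numbered 3665 and had a median of -0.06.

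**Figure D1:**
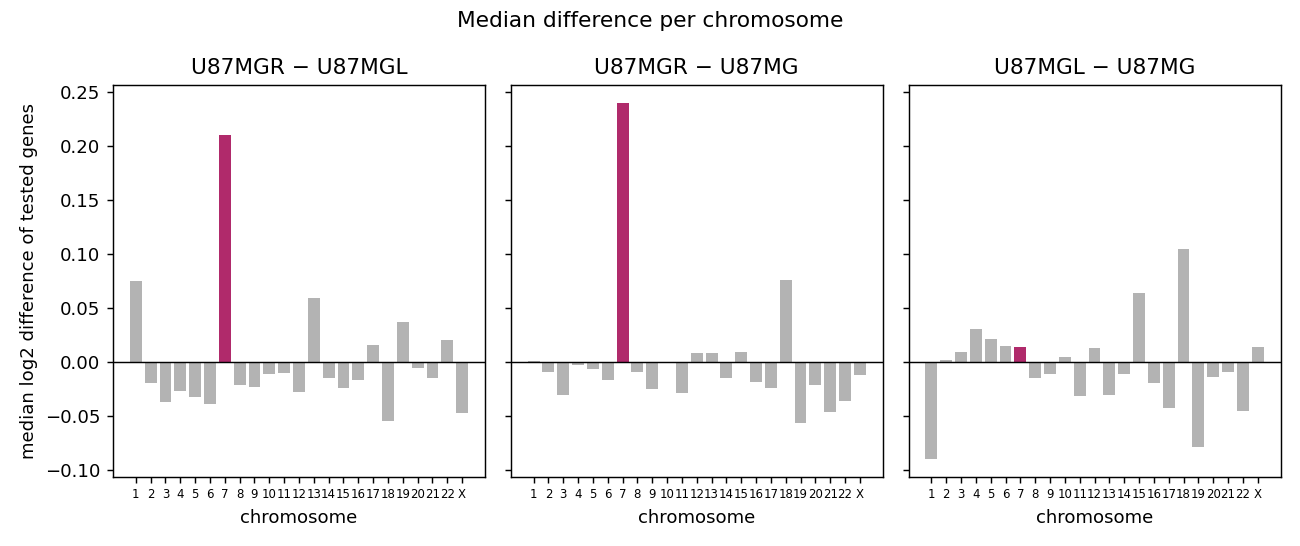
Median log2 difference of the tested genes of each chromosome, for the 3 pairs of groups (panels; bars start at 0). The bar of chromosome 7 stands at 0.21 for U87MGR minus U87MGL and at 0.24 for U87MGR minus U87MG, and at 0.01 for U87MGL minus U87MG, where the bars of the other chromosomes run from -0.09 to 0.10.

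Along the chromosome the difference between the derivatives was uneven. Members were placed in 6 segments by gene order, 3 on each arm. In the 5 segments from the p end to DLD, the middle of the long arm, member medians were 0.30, 0.24, 0.35, 0.32 and 0.25. In the last segment, from CAV1 and CAPZA2 to DNAJB6, the 13 members had a median of 0.02. That last stretch, distal 7q, held 8 members above 0 and 5 below, whereas the 39 members of the other segments, pooled after the data were seen, held 35 above 0 and had a median of 0.30. The other chromosome 7 genes showed the same order, with medians of 0.26 over 435 genes up to that point and 0.08 over 181 genes of distal 7q. A running median over 41 neighbouring genes reached 0.46 at ADAM22 on 7q, stood at 0.36 at DLD, 0.20 at CAV1 and 0.12 at CHCHD3, and was -0.03 at TRPV6, so that it declined into distal 7q. A window of 41 genes spreads any step over its neighbours, so the line cannot show whether the change was sharp or gradual.

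**Figure D2:**
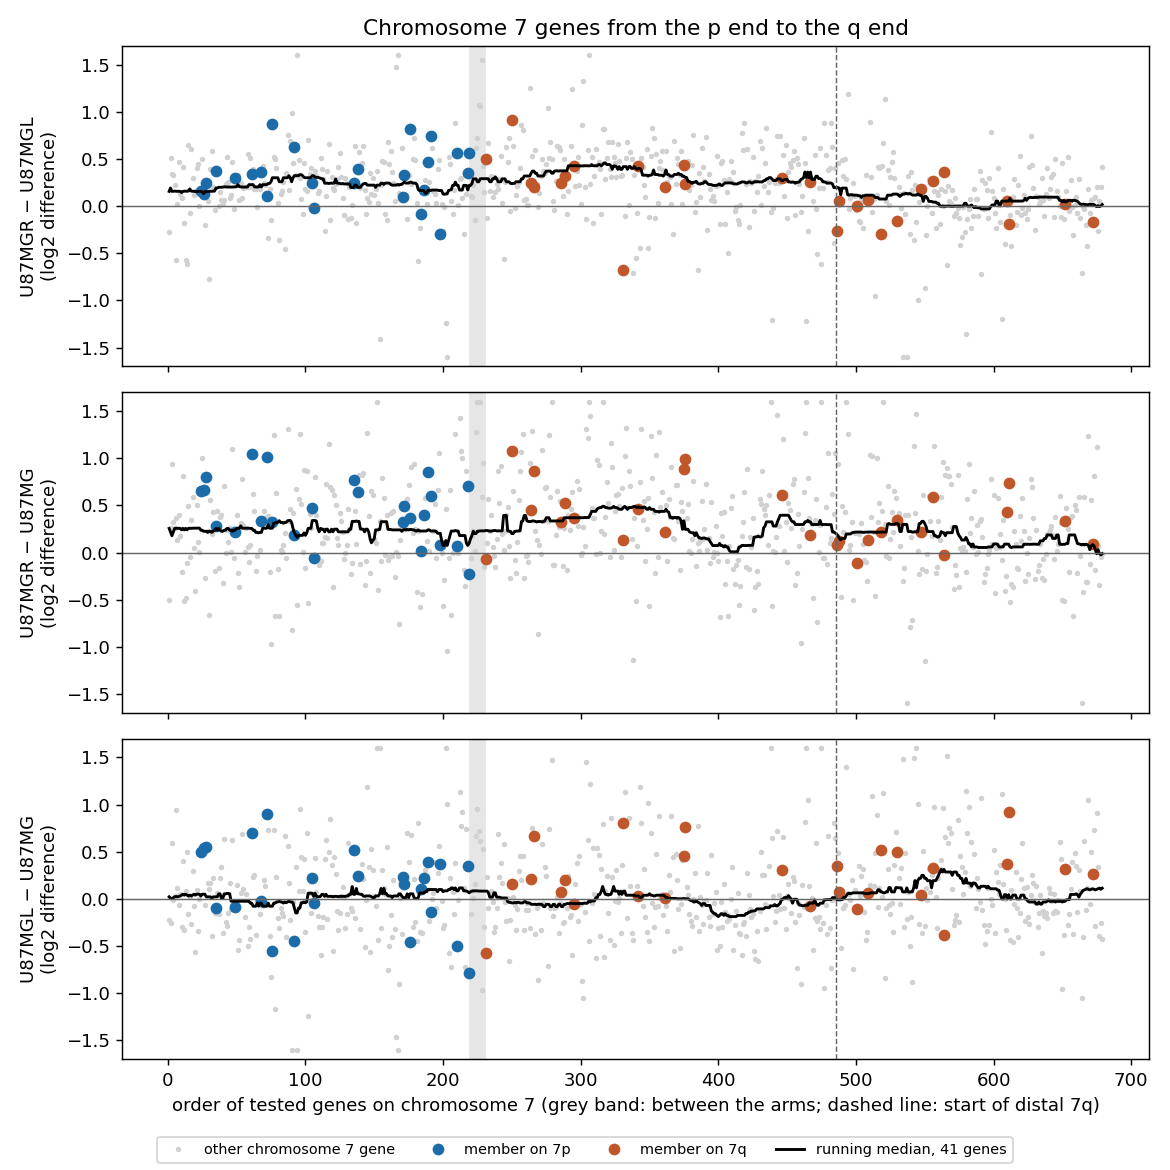
Log2 difference of each tested chromosome 7 gene in gene order, with members in blue (7p) and orange (7q), the other genes in grey and a running median over 41 genes as a black line. Points beyond 1.6 either way (22 of the other genes in at least 1 panel) are drawn at that value. In the top panel the line lies above 0 up to the dashed line, which marks the start of distal 7q, and declines from 0.20 at that line to its lowest value of -0.03 at TRPV6. In the middle panel it stays mostly above 0, and in the bottom panel it crosses 0 several times, between -0.19 at TRIP6 on middle 7q and 0.31 at DGKI on distal 7q.

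Array by array, the members placed U87MG lowest and U87MGR highest outside distal 7q. Relative to the mean of the 3 group means, the median member stood at -0.19 on both U87MG arrays, at -0.03 and 0.01 on the U87MGL arrays and at 0.26 and 0.20 on the U87MGR arrays. For the 25 members of 7p the levels were -0.19 and -0.18 in U87MG, -0.05 and 0.01 in U87MGL and 0.28 and 0.26 in U87MGR. For the 27 of 7q they were -0.20 and -0.22, -0.00 and 0.01, and 0.24 and 0.14. The 3 groups did not overlap in any of these member sets. The 627 other chromosome 7 genes set only U87MGR apart, at 0.11 and 0.16, while U87MG at -0.07 and -0.11 and U87MGL at -0.04 and -0.08 overlapped. On distal 7q the groups overlapped in the members too: levels were -0.20 and -0.17 in U87MG, 0.11 and 0.00 in U87MGL and 0.18 and 0.07 in U87MGR, so that U87MGL replicate 1 lay above U87MGR replicate 2.

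Subtracting distal 7q from the other segments on each array gave 0.13 and 0.17 in U87MGR, -0.17 and 0.01 in U87MGL and 0.01 and -0.07 in U87MG. The other chromosome 7 genes gave 0.10 and 0.12, -0.13 and -0.05, and -0.03 and -0.01. Both sets therefore placed the U87MGR arrays above the other 4. With 2 arrays against 2, an exact two-sided permutation test cannot go below 0.333, so no test was made of these levels. Left out in turn, U87MGR replicate 1 had the largest weight: without it the 7q median of U87MGR against U87MGL was 0.07 in place of 0.21, that of distal 7q was -0.07, and that of the other chromosome 7 genes was 0.21.

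**Figure D3:**
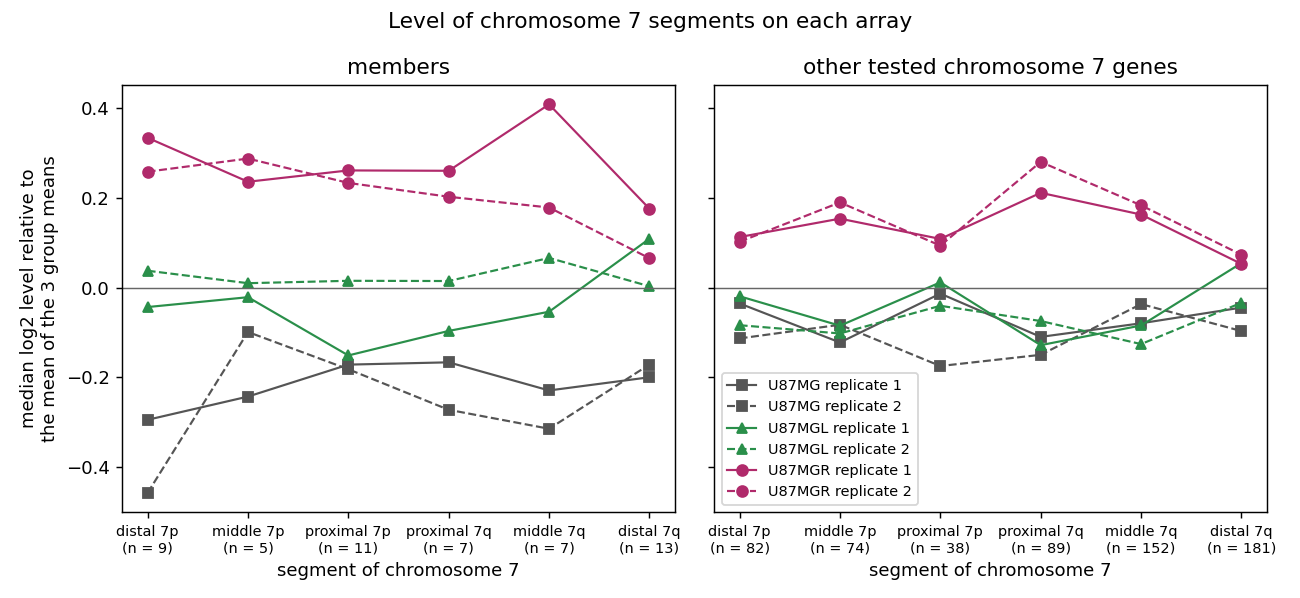
Median log2 level of each chromosome 7 segment on each of the 6 arrays, relative to the mean of the 3 group means, for members (left) and other tested genes (right); the number of genes is given under each segment. The U87MGR arrays lie at the top in every segment but distal 7q, where the levels of the members run from -0.20 to 0.18 and U87MGL replicate 1 lies between the U87MGR arrays.

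U87MGR against U87MG compares the invasive derivative with its parent. Members were higher in U87MGR over the whole length of the chromosome: 47 of 52 had a difference above 0, against 49.4% of all tested genes, with a median of 0.35 (1.28-fold) against -0.01 over all. By limma, 3 members were called higher, against 1.86% of all tested genes, and 0 lower, against 1.44%; without adjustment, 24 lay higher (11.0% of all tested genes did) and 0 lower (9.78% did) at p under 0.05. Both U87MGR arrays lay above both U87MG arrays in 36 members (69.2%, against 24.2% of all), and in 0 members did both lie below (against 24.2%). Segment medians of the members from the p end were 0.65, 0.47, 0.36, 0.45, 0.46 and, on distal 7q, 0.21. Those of the other chromosome 7 genes were 0.20, 0.19, 0.23, 0.36, 0.29 and 0.15 in the same order. Their highest was on proximal 7q, whereas that of the members was on distal 7p. The other chromosome 7 genes had a median of 0.23, the other chromosomes -0.06 to 0.08 and the chromosome 10 housekeeping genes 0.06. Within the spike-in batch that holds both groups (U87MG replicate 1 and U87MGR replicate 2) the member median was 0.39, with 43 of 52 above 0. Without U87MG replicate 2 it was 0.41. Leaving out U87MGR replicate 1 gave a distal 7q median of 0.11, and leaving out replicate 2 gave 0.33.

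The genes called in that comparison were C1GALT1, BZW2 and COPS6. C1GALT1, the enzyme that builds core O-glycans in the Golgi, read 7.71 and 7.65 in U87MG, 8.46 and 8.30 in U87MGL and 8.81 and 8.63 in U87MGR, a difference of 1.04 between U87MGR and U87MG (SE 0.16, 2.06-fold, limma adjusted p = 0.0269). BZW2, a protein that mimics part of a translation initiation factor, read 10.08 and 10.05 in U87MG, 10.91 and 11.02 in U87MGL and 11.14 and 11.01 in U87MGR, a difference of 1.01 (SE 0.15, 2.01-fold, limma adjusted p = 0.0259). COPS6, a subunit of the COP9 signalosome that strips NEDD8 from cullin ligases, read 10.86 and 10.94, 11.28 and 11.42, and 11.78 and 11.79 in the same order, a difference of 0.88 (SE 0.15, 1.84-fold, limma adjusted p = 0.0349). On these brightest probe sets the 3 groups were fully ordered in C1GALT1 and COPS6, with U87MGL in the middle, while in BZW2 the derivatives overlapped. Within the spike-in batch the differences were 0.92, 0.93 and 0.93. With U87MG replicate 1 left out 7 members were called higher, in a fit that called 486 genes higher over all in place of 270; with any of the other 5 arrays left out 0 were, with 1 to 150 over all genes, and with a block for 2 or 3 spike-in batches 0, with 5 and 96 over all genes. The fit with 2 batches and the one without U87MGR replicate 1 are the same for this comparison. C1GALT1's 3 probe sets ranged from 0.23 to 1.04 here. For U87MGR against U87MGL they differed in sign, from -0.18 to 0.34, while the 2 of COPS6 ranged from 0.28 to 0.43.

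U87MGL against U87MG compares the non-invasive derivative with its parent. Here the members and the rest of the chromosome parted in the fit without a batch block. Of 52 members 37 had a difference above 0, against 48.1% of all tested genes, and their median was 0.21 (1.16-fold). The other chromosome 7 genes had a median of -0.00 and all tested genes one of -0.02. No batch holds both groups, so a block for 2 or 3 spike-in batches links them only through U87MGR replicates 1 and 2. Any difference between those U87MGR arrays enters the estimate. With such a block the gap was smaller. Member medians were then 0.09 or 0.12, and those of the other chromosome 7 genes 0.05 or 0.07. The bright genes outside chromosome 7 described above had a median of 0.06, and the chromosome 10 housekeeping genes one of 0.06. By limma, 2 members were called higher (3.02% of all tested genes were) and 0 lower (1.80% were). Without adjustment, 13 lay higher (13.2% of all did) and 5 lower (10.1% did) at p under 0.05. Arrays did not overlap in the upward direction in 30 members (57.7%, against 28.1% of all) and in the downward direction in 11 (21.2%, against 28.3%). Segment medians of the members were 0.49, 0.23, 0.16, 0.16, 0.30 and 0.32 from the p to the q end, with no drop on distal 7q. Those of the other chromosome 7 genes were -0.03, 0.02, 0.11, -0.04, -0.06 and 0.06, so they did not share the members' high value on distal 7p.

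BZW2 was called here too, with a difference of 0.90 (SE 0.15, 1.86-fold, limma adjusted p = 0.0264). EZH2, the methyltransferase of the Polycomb repressive complex, read 8.65 and 8.29 in U87MG, 9.30 and 9.47 in U87MGL and 9.20 and 9.21 in U87MGR, a difference of 0.92 between U87MGL and U87MG (SE 0.18, 1.89-fold, limma adjusted p = 0.0377). All 4 derivative arrays lay above both parental ones in each gene. No batch holds both U87MGL and U87MG arrays, so a blocked estimate runs through the U87MGR arrays. A block for 2 or 3 spike-in batches reduced the member median to 0.09 or 0.12 and left 0 members called. With U87MG replicate 1 left out 6 were called higher and 1 lower, in a fit that called 883 and 667 over all genes in place of 438 and 261, and with any of the other 5 arrays left out 0 members were called, with 17 to 219 called higher over all genes. Without U87MG replicate 2 the member median was 0.20, and without U87MGL replicate 2 the 7p median was 0.14 in place of 0.22. The comparisons share arrays, so the values of a member in one are not independent of those in another.

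**Figure D4:**
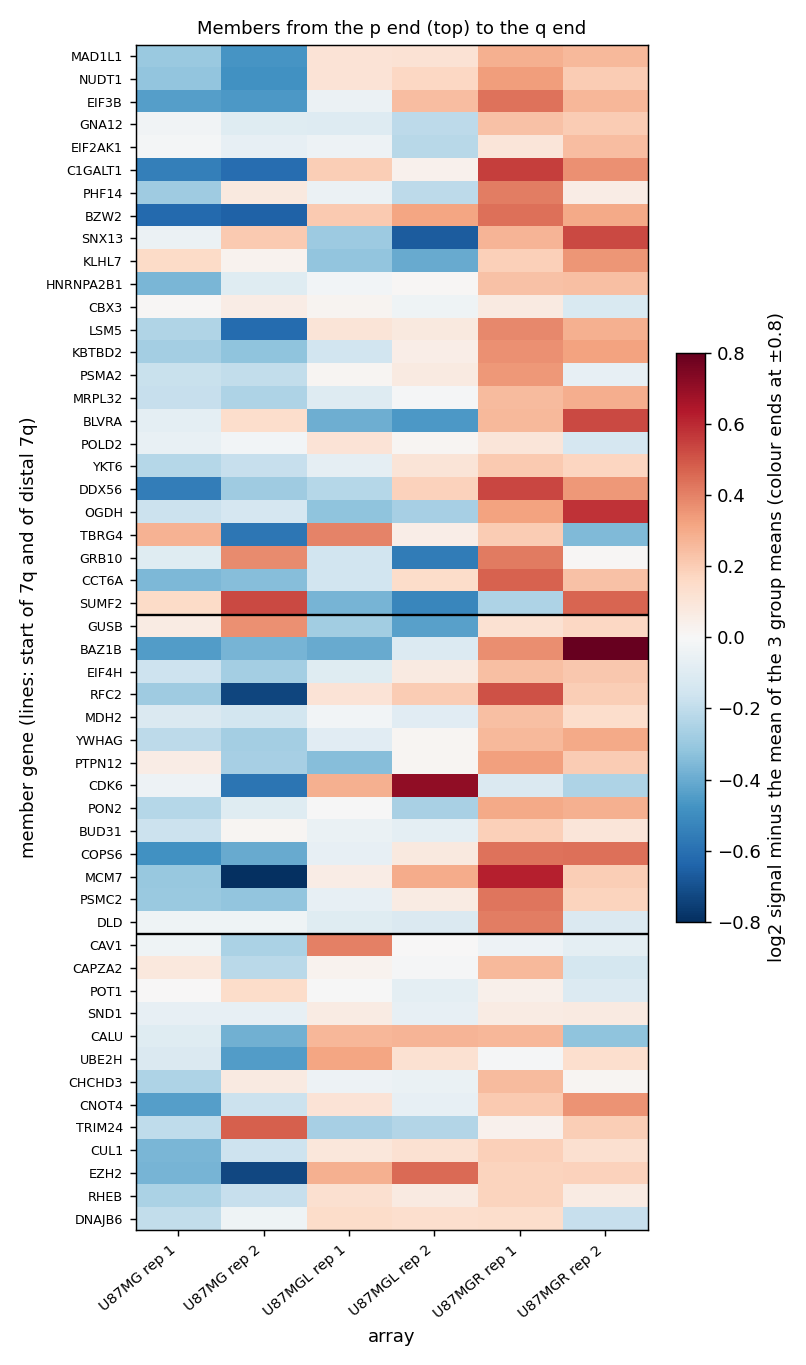
Log2 signal of the 52 tested members on each array relative to the mean of the 3 group means, in gene order; red is higher and blue lower, with colours ending at 0.8. The U87MG columns are mostly blue and the U87MGR columns mostly red above the lower line, which marks the start of distal 7q; several members break from that order, among them SNX13, KLHL7, BLVRA, GRB10, SUMF2, GUSB and CDK6.

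By role, the replication and genome maintenance genes showed the largest median difference from the parental line. The 6 tested had a median of 0.15 between the derivatives, while U87MGR exceeded U87MG by a median of 0.66 and U87MGL exceeded it by 0.51, with 0 called in any comparison. MCM7, a subunit of the replicative helicase, read 10.21 and 9.64 in U87MG, 10.57 and 10.81 in U87MGL and 11.13 and 10.71 in U87MGR. The difference of U87MGR from U87MG was 1.00 (SE 0.24, limma adjusted p = 0.0771). U87MG replicate 2 was the low array. RFC2, which helps to load the sliding clamp onto DNA, read 9.34 and 8.90, 9.74 and 9.83, and 10.14 and 9.83, with the derivatives above the parent on every array. MAD1L1, of the spindle checkpoint, and NUDT1, which clears oxidised nucleotides, had differences of 0.65 and 0.67 between U87MGR and U87MG. POLD2, an accessory subunit of DNA polymerase delta, had 10.48 and 10.52, 10.64 and 10.55, and 10.63 and 10.40, so that both U87MGL arrays lay above both U87MG arrays and the U87MGR arrays overlapped both groups. POT1, which caps telomeres, stood at 9.32 and 9.46, 9.31 and 9.24, and 9.35 and 9.20. Its differences were 0.00, -0.11 and -0.11. Both U87MGL arrays lay narrowly below both U87MG arrays, as in 28.3% of all tested genes, and the U87MGR arrays overlapped both groups.

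Translation factors, 4 in number, gave medians of 0.25, 0.62 and 0.38; here and below such triplets are U87MGR minus U87MGL, U87MGR minus U87MG and U87MGL minus U87MG. EIF3B, a scaffold subunit of the initiation factor that readies the small ribosomal subunit, read 10.79 and 10.77 in U87MG, 11.19 and 11.48 in U87MGL and 11.67 and 11.50 in U87MGR. The difference between U87MGR and U87MG was 0.80 (SE 0.17, limma adjusted p = 0.0565), and its 5 probe sets ranged from 0.45 to 2.17. EIF4H, which stimulates the initiation helicase, and EIF2AK1, a haem-regulated kinase that restrains initiation, differed by 0.45 and 0.21. In all 4 genes, BZW2 included, both U87MGR arrays lay above both U87MG arrays. The same held in 69.2% of all members, 45.5% of the other chromosome 7 genes and 24.2% of all tested genes.

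None of the 6 RNA processing genes was called in any comparison. In all 6, both U87MGR arrays lay above both U87MGL arrays (67.3% of all members, 23.3% of all tested genes), with a median of 0.24. They also lay above both U87MG arrays (69.2% and 24.2%), with a median of 0.53. For U87MGL against U87MG the median was 0.28 and 4 were without overlap upward (57.7% and 28.1%). DDX56, a nucleolar RNA helicase, read 8.87 and 9.14 in U87MG, 9.19 and 9.60 in U87MGL and 9.96 and 9.77 in U87MGR. LSM5, of the ring that binds U6 RNA and decaying mRNA, read 10.93 and 10.56, 11.28 and 11.26, and 11.56 and 11.46. The differences between U87MGR and U87MG were 0.86 for DDX56 and 0.76 for LSM5 (limma adjusted p = 0.0702 and 0.0682). HNRNPA2B1, BUD31 and SND1, which take part in splicing or RNA binding, and CNOT4, of the CCR4-NOT complex, had differences of 0.13 to 0.59 there. Other probe sets of HNRNPA2B1 and BUD31 reached down to -0.18 and -0.12 in that comparison, and those of CNOT4 to -0.34 for U87MGR against U87MGL.

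Among the 7 genes of the proteasome, the COP9 signalosome and ubiquitin transfer, medians were 0.30, 0.43 and 0.30. In all 7 both U87MGR arrays exceeded both U87MG arrays, against 69.2% of all members and 24.2% of all tested genes. KBTBD2, an adaptor of cullin ligases, read 8.88 and 8.83 in U87MG, 8.996 and 9.21 in U87MGL and 9.51 and 9.47 in U87MGR, a fully ordered series. The proteasome subunits PSMC2 and PSMA2 differed by 0.61 and 0.33 between U87MGR and U87MG. CUL1, the scaffold of SCF ligases, and UBE2H, a conjugating enzyme, both on distal 7q, differed by 0.43 and 0.34 from U87MG, but by 0.05 and -0.16 from U87MGL. These values are of the brightest probe sets. Other probe sets of KBTBD2, PSMC2 and UBE2H reached down to -0.14, -0.07 and -0.54 for U87MGR against U87MG. KLHL7, another cullin adaptor, went the other way in U87MGL on its brightest probe set, at -0.45 against U87MG, and was 0.63 higher in U87MGR than in U87MGL. Its 3 probe sets differed in sign in both comparisons, ranging from -0.45 to 0.81 and from -0.17 to 0.63.

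The 2 chaperone genes split by position. CCT6A, a subunit of the cytosolic chaperonin on 7p, read 10.99 and 11.01 in U87MG, 11.20 and 11.50 in U87MGL and 11.82 and 11.58 in U87MGR. DNAJB6, a co-chaperone near the q end, read 9.17 and 9.33, 9.51 and 9.50, and 9.50 and 9.18, so that U87MGR replicate 2 stood with the parental arrays. U87MGR against U87MG gave 0.70 and 0.10.

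Chromatin genes were mixed, with medians of 0.36, 0.34 and -0.02 over 5 genes. BAZ1B read 9.44 and 9.52 in U87MG, 9.49 and 9.78 in U87MGL and 10.26 and 10.85 in U87MGR. The U87MGR arrays were the high ones, by 0.92 over U87MGL (SE 0.23, limma adjusted p = 0.265) and 1.08 over U87MG (limma adjusted p = 0.0558), and they differed from each other more than those of the other groups did. TRIM24, a chromatin reader and transcriptional cofactor, read 8.55 and 9.24, 8.49 and 8.52, and 8.79 and 8.95, with U87MG replicate 2 the highest array. CBX3, a heterochromatin protein, stood at 11.37 and 11.42, 11.39 and 11.33, and 11.43 and 11.24, with differences of -0.02, -0.06 and -0.04. PHF14 had differences of 0.36, 0.34 and -0.02.

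Secretory and membrane genes gave medians of 0.18, 0.32 and 0.35 over 5 genes. SNX13 read 9.20 and 9.45 in U87MG, 8.96 and 8.58 in U87MGL and 9.52 and 9.77 in U87MGR, and U87MGL was the low group by 0.88 (SE 0.20, limma adjusted p = 0.226 against U87MGR). CAV1, the coat protein of caveolae at the start of distal 7q, read 12.70 and 12.48, 13.14 and 12.73, and 12.69 and 12.65. CALU, a calcium-binding protein of the endoplasmic reticulum, read 12.58 and 12.29, 12.95 and 12.95, and 12.95 and 12.35. In CAV1 both U87MGL arrays were the high ones, and in CALU the U87MGR arrays spanned nearly the whole range. YKT6, a SNARE of vesicle fusion, differed by 0.18, 0.39 and 0.22.

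Mitochondrial, metabolic and lysosomal genes, 10 in number, were lower in U87MGL about as often as higher: their medians were 0.38, 0.27 and -0.02, and for U87MGL against U87MG 5 differences lay above 0 and 5 below. BLVRA read 10.76 and 10.97 in U87MG, 10.45 and 10.38 in U87MGL and 11.10 and 11.36 in U87MGR. GUSB, the lysosomal glucuronidase often used as a reference transcript, read 9.88 and 10.17, 9.53 and 9.38, and 9.93 and 9.98. U87MGL was the low group in both, with differences from U87MG of -0.46 and -0.57 (limma adjusted p = 0.175 and 0.108). SUMF2, a relative of the sulfatase-modifying enzyme, read 9.20 and 9.58, 8.68 and 8.53, and 8.80 and 9.52, and was 0.79 lower in U87MGL than in U87MG, with the U87MGR arrays far apart. OGDH read 9.28 and 9.31, 9.13 and 9.19, and 9.77 and 10.03, with U87MGR the high group. TBRG4, a regulator of mitochondrial RNA, read 5.49 and 4.64, 5.61 and 5.27, and 5.42 and 4.86, so all groups overlapped; of the tested members it lay closest to the filter. MRPL32 of the mitochondrial ribosome, the dehydrogenases MDH2 and DLD, PON2 and CHCHD3 differed by 0.18 to 0.43 between U87MGR and U87MGL.

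Signalling and actin genes, 7 in number, had medians of 0.32, 0.28 and 0.08. CDK6 was 1 of 9 members with a difference below 0 between U87MGR and U87MGL, at 8.11 and 7.57 in U87MG, 8.44 and 8.86 in U87MGL and 8.04 and 7.90 in U87MGR. Both U87MGL arrays were high, and all 4 of its probe sets were lower in U87MGR than in U87MGL, from -0.68 to -0.40. The difference on the brightest had an SE of 0.24 and a limma adjusted p of 0.457. GRB10, an adaptor of insulin receptor signalling, read 10.78 and 11.25, 10.72 and 10.32, and 11.29 and 10.88, with differences of 0.57, 0.07 and -0.50. YWHAG, a 14-3-3 protein, PTPN12, a tyrosine phosphatase, and GNA12, a G protein subunit, differed by 0.32 to 0.43 between the derivatives, and CAPZA2, which caps actin filaments, and RHEB, the GTPase that activates mTOR, both on distal 7q, by 0.05 and 0.02.

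**Figure D5:**
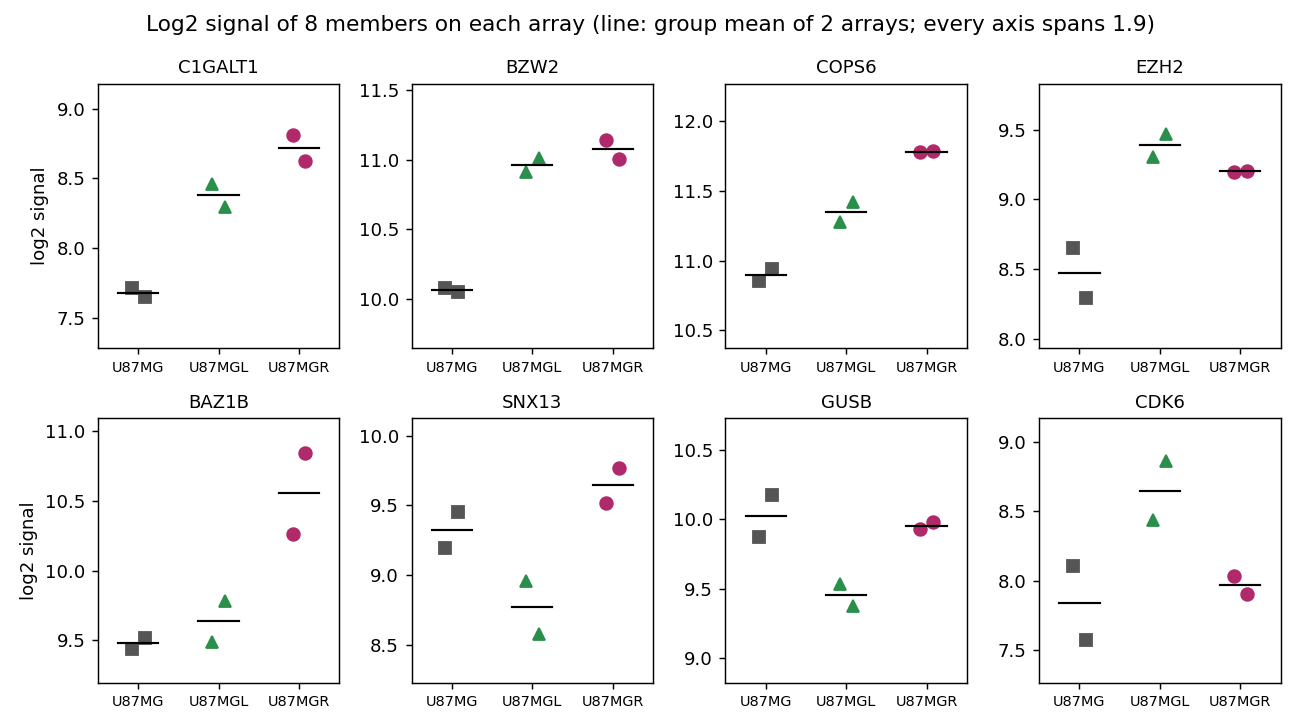
Log2 signal of the brightest probe set of 8 members on each array, with points for arrays and a line at the mean of 2. The axes have different starting points and the same span. C1GALT1 and COPS6 are lowest in U87MG, intermediate in U87MGL and highest in U87MGR, EZH2 and BZW2 are high in both derivatives, BAZ1B is high in U87MGR, SNX13 and GUSB are low in U87MGL and CDK6 is high in U87MGL.

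Regulated genes of the same chromosome spanned a wider range, from -3.95 to 1.64 for U87MGL against U87MG, where the members spanned -0.79 to 0.92. Of 30 chromosome 7 genes with known parts in glioma or in regulated programmes, a list that leaves out the members, 24 were tested, with medians of 0.19, 0.29 and 0.18. For U87MGR against U87MGL limma called 0 of them, with 15 of 24 above 0. For U87MGR against U87MG it called 4 higher and 0 lower: SEMA3A, a guidance cue (1.45, adjusted p = 0.0384), CAV2, the partner of CAV1 in caveolae (1.05, adjusted p = 0.0499), MET, the receptor of hepatocyte growth factor (0.94, adjusted p = 0.0444), and PDGFA, a platelet-derived growth factor chain (0.94, adjusted p = 0.0384). EGFR had a difference of 1.43 there that did not pass (limma adjusted p = 0.124), with U87MG replicate 1 at 9.21, replicate 2 at 10.7 and the derivatives at 10.996 to 11.52. For U87MGL against U87MG limma called HGF (1.45, adjusted p = 0.0388) and SEMA3A (1.21, adjusted p = 0.0499) higher and GPNMB, a melanosomal glycoprotein, lower (-3.95, adjusted p = 0.0190).

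Of the 59 members, 7 had no test. SNX10 lay below the filter, with means of 3.344, 4.015 and 3.467 in U87MG, U87MGL and U87MGR. PMS2, of mismatch repair, and SBDS, of ribosome maturation, were measured only by probe sets shared with the pseudogenes PMS2CL and SBDSP1, so gene and pseudogene cannot be told apart. The shared SBDS probe sets read 9.73 to 10.2 in U87MG, 9.79 to 10.4 in U87MGL and 10.2 to 10.9 in U87MGR; those of PMS2 read 6.78 to 7.63, 6.92 to 7.79 and 6.97 to 8.08. KDELR2, SEC61G, KRIT1 and BRAF were not analysed here. Of the tested members, 38 had several probe sets above the filter, and all of a gene's probe sets had the same sign in 28, 25 and 21 genes for those 3 differences. BAZ1B and OGDH were among those with mixed signs for U87MGR against U87MG.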

How the data were processed

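Total RNA of 6 cultures was measured on 1-colour oligonucleotide arrays, labelled with biotin per the labels' protocols. The authors deposited, for each of 54675 probe sets, a normalized log2 signal, made by a method not given in the sources used here. Values ran from 2.38 to 14.6, and none was transformed or renormalized. Of the probe sets, 41097 carried 1 gene symbol, 1801 several and 11777 none; 99.9% of the first matched the RefSeq annotation of GRCh38.p14 by gene number, which gave chromosome and gene order but no coordinates, since the probe table names no build. The brightest 1-symbol probe set stood for a gene, which was tested where that mean was at or above the 40th percentile over probe sets (4.73).

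One limma model (version 3.58.1, R 4.3.3) with a mean per group was fitted to 14513 genes on all 6 arrays, with 3 residual and 4.05 prior degrees of freedom. It was tested on simulated data first. Calls used a two-sided Benjamini-Hochberg adjusted p under 0.05 over all genes tested. The number of arrays limits the precision.

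Members, segments and lists (chromosome 10 housekeeping genes, other chromosome 7 genes, cell type markers) were chosen with earlier results of these data known. Values are given for members called in any comparison, for the 3 highest and 3 lowest of each arm and comparison, and for up to 2 of each role with the largest difference; of the other lists up to 3 called genes a direction. Equally numbered arrays did not deviate together (correlations -0.09, 0.11 and 0.01), so they were not paired. Spike-in batches came from 21 control probe sets (distances 0.682 to 1.05 within and 4.12 to 6.40 between batches).

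Alternatives were a replicate block, spike-in batch blocks, each array left out, centring on genes outside chromosome 7, quantile normalization, no filter or a stricter one (60th percentile), the mean of a gene's probe sets, probe sets without shared-sequence suffixes and limma-trend.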

Additional observations from a re-analysis of the deposited data

How the results depend on the processing

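For U87MGR against U87MGL no alternative called a member, and the medians stayed above 0 on both arms in all of them. With quantile normalization the 7p median was 0.38 and with the mean of a gene's probe sets 0.21; with each array left out in turn it was 0.25 to 0.33, and the 7q median 0.066 to 0.25. The median of the members outside distal 7q exceeded that of distal 7q in all 16 alternatives (0.23 to 0.37 against -0.10 to 0.08). The replicate block, limma-trend, centring and the fits without a U87MG array cannot change the gap between these medians. Both spike-in batch blocks and the fit without U87MGR replicate 2 gave the same estimate (0.36 against 0.08). The 16 are therefore not separate checks.

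For U87MGR against U87MG, with each array left out, medians were 0.37 to 0.47 on 7p and 0.28 to 0.43 on 7q, with 0 to 7 members called. The 7p median was 0.47 with 2 spike-in batches as a block, 0.52 with 3 (U87MG replicate 2 out of the fit) and within the shared batch, 0.36 when centred outside chromosome 7, 0.43 with the stricter filter, 0.42 with the mean of probe sets and 0.58 without shared-sequence probe sets. The 7q median was 0.27 with 3 batches and within the shared batch, 0.19 with the mean of probe sets and 0.20 without shared-sequence probe sets. Members called numbered 0 with 2 or 3 batches, 5 with the stricter filter, 5 without shared-sequence probe sets and 8 with limma-trend; over all genes, 2 batches left 5 called higher and 6 lower, in place of 270 and 209. For this comparison the fit with 2 batches is the fit without U87MGR replicate 1, since that array then shares a batch only with U87MGL. Both gave a member median of 0.385, so they are not separate checks.

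For U87MGL against U87MG, with each array left out, medians were 0.14 to 0.22 on 7p and 0.16 to 0.25 on 7q, with 0 to 6 members called higher and 0 to 1 lower. On 7p and 7q the medians were 0.11 and 0.069 with 2 batches, 0.12 and 0.080 with 3, 0.14 and 0.13 when centred outside chromosome 7 (which moved the median of all genes to -0.10), and 0.16 and 0.11 without shared-sequence probe sets; on 7p they were 0.17 with quantile normalization and 0.13 with the mean of probe sets. Called members numbered 0 with either batch block and 4 with the mean of probe sets. Either block links U87MGL to U87MG only through the U87MGR arrays.

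Equal replicate numbers do not pair the arrays. With the replicate as a block, 1 member was called for U87MGL against U87MG (BZW2; EZH2 had a limma adjusted p of 0.05525) in place of 2. For U87MGR against U87MG, COPS6 fell short (0.05066) and BAZ1B was called (0.0461). No median can change under this block.

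The smallest difference called in a member was 0.88, so shifts of the size of the medians were below what 2 arrays a group called here. Copy number was not measured, and the brightest probe set of a gene need not stand for its other transcripts.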
